A study of Oryza sativa with 2 samples.

Results

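Auxin receptors of the TIR1/AFB class and the auxin response factors cut by miR167 form the sensing and the transcribing end of auxin signalling in the plant cell. They were studied here through the fragments that small RNA cleavage leaves behind. The members were taken from the deposited table as the transcripts with the symbols Os04g0395600 or Os05g0150500 listed with miR393, and those with the symbols ARF12 or ARF25 listed with miR167. They comprised 4 genes of the 823 with reads, 21 of 25653 listed small RNA and transcript pairs, and 15 of 2064 sites with reads. A site is 1 position on 1 transcript version, and versions of a gene that carry the same cut share its reads, so the 15 sites stand for 6 distinct cuts.

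The samples were mesocotyls of the indica rice cultivar P25, the stem-like organ that lifts a grass seedling to the soil surface. The dark library (D_5d) came from seedlings kept for 5 days in darkness, and the light library (L_1h) from seedlings moved to light for 1 h after an equal dark period of 5 days. Both groups shared the cultivar and the Murashige and Skoog medium, and each had 1 library. How many seedlings were pooled is not given in the labels, so no spread between seedlings can be stated. Degradome sequencing reads the 5′ ends of uncapped RNA, so a cut at 1 place gives reads that start there. The table lists small RNA targets, and the tissue label could not be set against marker genes in it.

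TIR1/AFB proteins are F-box subunits of a ubiquitin ligase that bind auxin together with Aux/IAA repressors, which are then degraded. This frees the ARF proteins, which bind auxin-responsive promoters. miR393 lowers the receptors and miR167 lowers ARF genes of the activating kind in many plants. In grass seedlings auxin from the coleoptile tip promotes elongation of the mesocotyl, and light stops that elongation.

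Os04g0395600 is described in the deposited table as protein TRANSPORT INHIBITOR RESPONSE 1 and Os05g0150500 as similar to it, so both carry the receptor's name. ARF12 and ARF25 are described only as hypothetical proteins, with DNA-binding and auxin-signalling terms, so their class rests on the symbols. The RefSeq rice table matched 2 of the 4 symbols and gives OsARF8 as another name of ARF12 and OsARF6b as another name of ARF25. The gene that carries the symbol ARF8 in the deposited table is a different one, listed with miR160. No genome of the files' build was used here, so positions are those on each transcript.

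The small RNAs paired with the 4 genes had 4 distinct sequences, shown because the listed cut positions differ between the miR393 forms. Capitals mark the seed, bases 2 to 8 from the 5′ end, and the letters are DNA letters as deposited.
osa-miR393a: tCCAAAGGgatcgcattgatc
gma-miR393a_L+1 and zma-miR393b-5p_L+1R-1: tTCCAAAGggatcgcattgatc
osa-miR167a-5p: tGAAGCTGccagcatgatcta
gma-miR167e and mtr-miR167b-5p_1ss21GT: tGAAGCTGccagcatgatctt
The 22-base miR393 form is osa-miR393a with 1 more T at its 5′ end, so its seed is moved by 1 base. The miR167 forms share a seed and differ by A21T, counted from the 5′ end of osa-miR167a-5p.

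On the receptor transcripts reads started at a pair of neighbouring listed positions. Only positions listed with a small RNA are given, so reads at other bases nearby cannot be seen. With osa-miR393a the listed cut was position 2645 on version ZS04t0484500-01 of Os04g0395600 and position 2725 on its other versions, ZS04t0484500-02 and ZS04t0484500-03. On Os05g0150500, with the version ZS05t0057600-01 alone, it was position 1979. These are called the main positions. With the 22-base form the listed cut was the next base toward the 3′ end, 2646, 2726 or 1980. In either case the cut was the 10th base of the listed paired stretch on the transcript, counted from its 3′ end, where the 5′ end of the small RNA lies. That stretch spans 20 bases for the 21-base form and 21 for the 22-base form, so which base of miR393 faced the cut cannot be read from the table.

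The pairing penalty, which is higher for a worse match and reached 4 in the table, was 1 for osa-miR393a and 2 for the 22-base form on both receptors. On the ARF genes it was 4 in all 9 pairs. The listed cut of ARF12 was position 2501 of ZS04t0796000-01 and ZS04t0796000-05, 2545 of ZS04t0796000-02, 2608 of ZS04t0796000-03 and 2536 of ZS04t0796000-04. That of ARF25 was position 3342 of ZS12t0494300-01 and 3638 of ZS12t0494300-02. The paired stretch on the ARF transcripts spans 22 bases against 21 of the small RNA, and the cut lies at base 11 of that stretch. Here the stretch has 1 base more than the small RNA, and the base of miR167 that faced the cut is likewise not settled.

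All 21 pairs of the 4 genes had reads, against 12.7% of all listed pairs, and all 15 sites had reads in both libraries, against 33.5% of all sites. Since these genes were picked with such results known, the contrast is a description only. Among the other pairs of the same small RNA families 4 of 21 with miR393 and 20 of 147 with miR167 had reads.

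Os04g0395600 had most of the reads. At its main position 44 raw reads started in D_5d and 100 in L_1h. Scaled to the library totals of 15422946 and 34051452 reads these were 2853 and 2937 TPB, a unit in which 1 unshared read is worth 64.8 in D_5d and 29.4 in L_1h. The 2 levels were close, at a light over dark ratio of 1.03 with a 95% counting interval of 0.715 to 1.503.

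At the next base Os04g0395600 had 9 reads in D_5d and 6 in L_1h, or 584 and 176 TPB. This is a ratio of 0.302 (0.0884 to 0.9499), lower in L_1h although the light library is the deeper one. Joined over both positions the gene had 53 and 106 reads, 3436 and 3113 TPB, and a ratio of 0.906 (0.645 to 1.28).

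Os05g0150500, the other receptor, had the same arrangement. Its main position had 39 reads in D_5d and 74 in L_1h, 2529 and 2173 TPB, at a ratio of 0.859 (0.576 to 1.30). Its next base had 8 and 5 reads, 519 and 147 TPB, at 0.283 (0.0729 to 0.981). Joined, the gene had 47 and 79 reads, 3047 and 2320 TPB, and a ratio of 0.761 (0.524 to 1.12). In both receptors the interval of the main position includes 1 and that of the next base ends just under it.

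ARF12, listed with miR167, had 10 reads in D_5d and 14 in L_1h, shared by its 5 versions. Summed over them these were 648 and 411 TPB, a ratio of 0.634 (0.262 to 1.60). ARF25 had 3 and 5 reads, shared by its 2 versions, or 195 and 147 TPB and a ratio of 0.755 (0.147 to 4.86). For ARF25 the reads are near the floor of 3 reads used for a library, and a difference of several fold in either direction was not detectable at this depth.

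**Figure D1:**
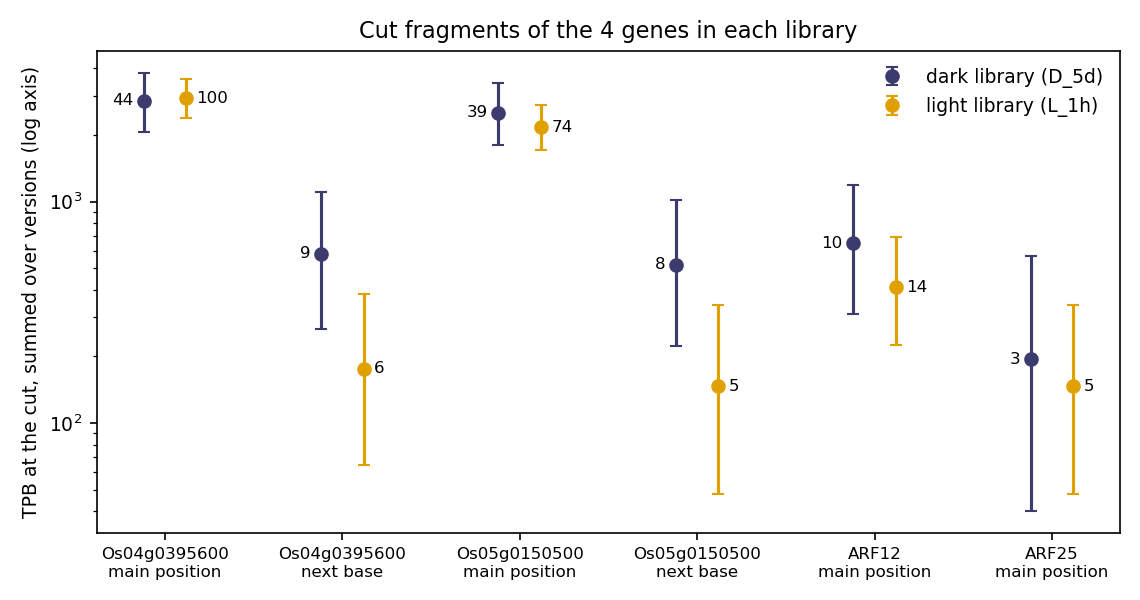
TPB (vertical axis, log scale) at each of the 6 cuts of the 4 genes in the dark and light libraries, with raw reads beside each point and exact 95% Poisson intervals of the reads as bars, which cover counting error only. The receptors' main positions stand highest, between 2173 and 2937 TPB, and the next base is lower in L_1h in both.

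A ratio was called when it was at least 2-fold in either direction with an interval that excluded 1. With 1 library per condition no test between the conditions was made, and the intervals describe these libraries. Of the 4 genes none was called higher and none lower, where 27 of 823 genes (3.28%) were called higher and 19 (2.31%) lower. The median ratio of the 4 genes was 0.758, beside 0.883 over the 255 genes with reads in both libraries. Of the 15 sites 4 were called lower and none higher, where 49 of 2064 sites (2.37%) were called lower and 52 (2.52%) higher. The 4 are the next-base cut on 3 versions of Os04g0395600 and on Os05g0150500, so they count 2 cuts and the percentage cannot be set against them directly. None of the 4 was called when the libraries were scaled by the median ratio over shared sites.

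**Figure D2:**
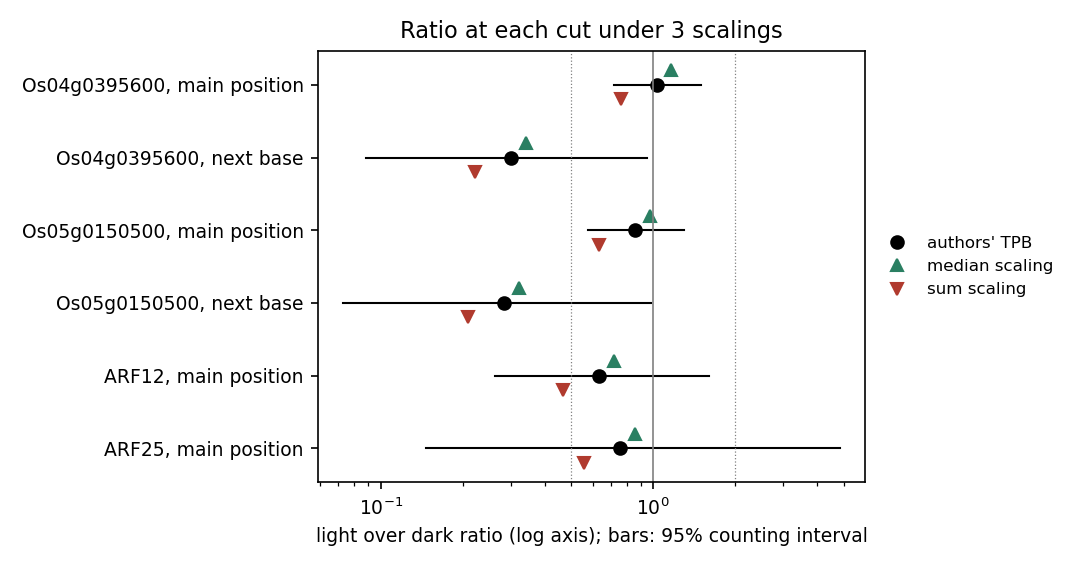
Light over dark ratio (horizontal axis, log scale) at the 6 cuts under the authors' TPB with its 95% counting interval, and under the median and sum scalings. Dotted lines mark 2-fold. The next-base cuts lie at 0.302 and 0.283 and the main positions at 1.03 and 0.859 on the authors' scale.

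Which of the 4 genes stood higher was the same in both libraries. In the dark library Os04g0395600 had 1.13 times the reads of Os05g0150500 (0.747 to 1.71) and in L_1h 1.34 times (0.993 to 1.82), so the receptors did not differ in level beyond counting error. Os05g0150500 stood above ARF12 by 4.70 times (2.34 to 10.4) and 5.64 times (3.17 to 10.8). ARF12 and ARF25 were again not separable, at 3.33 times (0.858 to 18.8) and 2.80 times (0.953 to 9.93). These are reads that start at the cuts, which do not depend on transcript length.

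The 4 genes were also compared in how their light over dark ratio differed from each other. Over the 6 pairs of genes the ratio of ratios ran from 0.845 for ARF12 over ARF25 to 1.43 for Os04g0395600 over ARF12, and all 6 intervals included 1. For the receptors it was 1.19 (0.708 to 1.997). The intervals are wider in every pair that involves an ARF gene than in the pair of receptors.

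**Figure D3:**
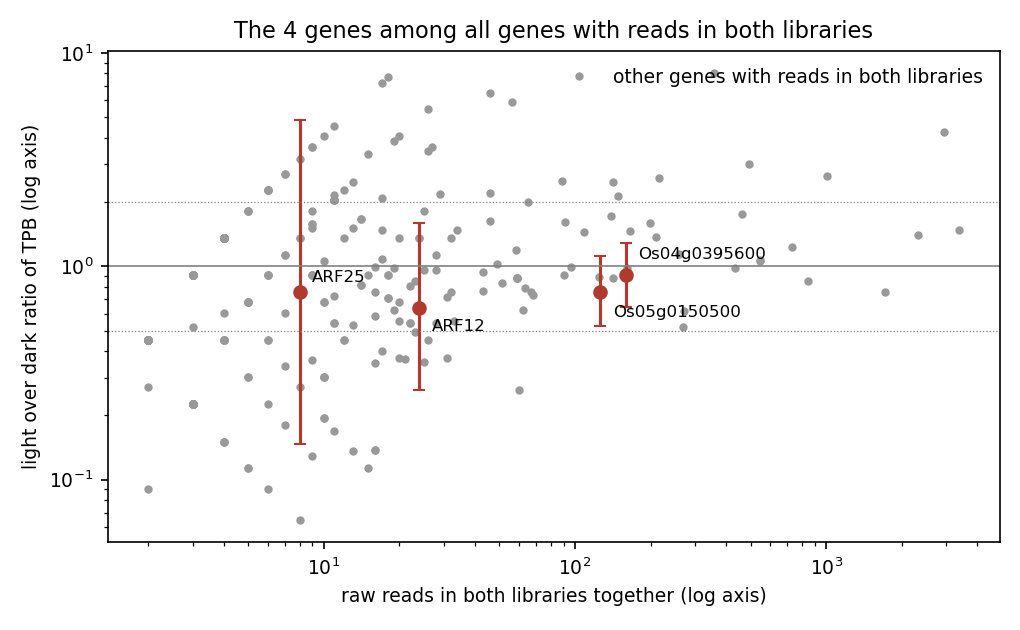
Light over dark ratio (vertical axis, log scale) against raw reads in both libraries together (horizontal axis, log scale) for the 255 genes with reads in both. The 4 genes, with 95% counting intervals, lie between 0.634 and 0.906, and the intervals widen from the receptors to ARF25.

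Among all genes with reads, ranked by TPB, Os04g0395600 was number 16 of 413 in D_5d and 23 of 665 in L_1h. Os05g0150500 was number 19 and 28, ARF12 57 and 76, and ARF25 123 and 168. Together the 4 genes took 2.06% of the TPB at listed sites in D_5d and 1.22% in L_1h. Fragments of the 5 ARF genes listed with miR160, which belong to the repressing kind, took 39.2% and 37.6%. These shares reflect both cutting and transcript amount, which was not analysed here. In whole mesocotyls fewer cells that express a gene and less RNA per cell cannot be told apart.

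The division of receptor reads between the main position and the next base does not depend on how the libraries are scaled. In Os04g0395600 the next base held 9 of 53 reads in D_5d (17.0%, exact 95% limits 8.07 and 29.8) and 6 of 106 in L_1h (5.66%, 2.11 and 11.9). In Os05g0150500 it held 8 of 47, 17.0% (7.65 to 30.8), and 5 of 79, 6.33% (2.09 to 14.2). The receptors share no reads at these sites, since reads of Os05g0150500 were divided by 1 matching place and those of Os04g0395600 by 3, the number of its own versions. The shares were thus nearly equal in the receptors within each library, and lower in L_1h in both.

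As an odds ratio of next base to main position, light over dark, this was 0.296 (0.0813 to 0.996) in Os04g0395600 and 0.333 (0.0799 to 1.24) in Os05g0150500. With the genes joined 17 of 100 reads (17.0%, 10.2 to 25.8) stood against 11 of 185 (5.95%, 3.01 to 10.4), an odds ratio of 0.310 (0.125 to 0.738). The comparison was added after the data were seen.

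**Figure D4:**
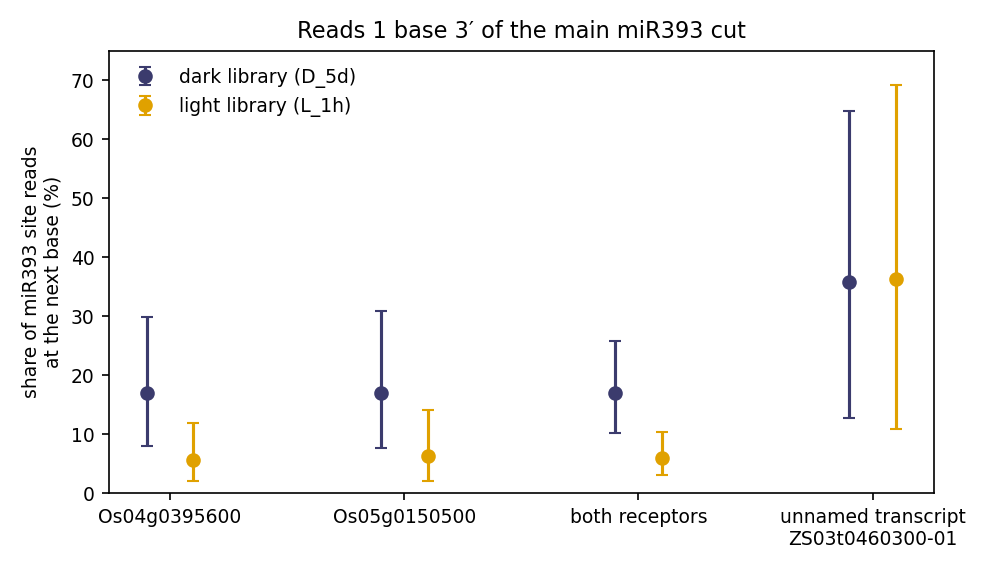
Share of the reads at a miR393 cut that start at the next base (vertical axis, percent) in the dark and light libraries, for each receptor, both joined and an unnamed transcript, with exact 95% intervals. The receptors stand at 17.0% in D_5d and 5.66% and 6.33% in L_1h, and the unnamed transcript at 35.7% and 36.4%.

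The same division was computed for neighbouring positions in the table with at least 20 reads and with reads in both libraries, 33 pairs of 28 genes. Pairs of SPL3, SPL12 and SPL16 share a position, and versions of ZS11g0552900 with unlike reads entered separately, so the 33 are not all independent. The interval of the odds ratio excluded 1 in 3 of them (9.09%), and was below 1 in 2 (6.06%), of which Os04g0395600 is 1. The other is a NAC021 gene, ZS12g0491700, at 0.108 (0.00868 to 0.985), where the second base held 3 of 32 reads in D_5d and 2 of 184 in L_1h. An odds ratio as low as that of Os05g0150500 or lower was found in 8 of the 33, with both receptors among the 8. NAC021 genes ZS12g0491700, ZS06g0612500 at 0.196 (0.00328 to 3.82) and ZS08g0123100 at 0 (upper limit 6.44) are also among them. In these the first base is the main cut, as on the receptors. Some of the 8 rest on very few reads at 1 base. Both NFYA6 pairs had 0 reads at the first base in D_5d, and 2 and 1 in L_1h. Their odds ratios of 0 have upper limits of 10.7 and 67.8, and there the second base is the main cut. These counts therefore cannot tell whether the receptors' shares stand apart from those of other targets.

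The degradome category grades how a cut stands against the other read positions of its transcript, and by common usage category 0 is the highest position. Of the 15 sites 2 were in category 0 in D_5d, position 1979 of Os05g0150500 and position 2536 of ARF12 version ZS04t0796000-04. In the light library none was, and all 15 were in category 2, by the same usage the grade for cuts above the typical position of the transcript but not the highest. Over all sites 8.84% were in category 0 in D_5d and 6.78% in L_1h. The other 4 versions of ARF12 were in category 2 in D_5d with the same 10 reads, so the category there depends on which version is taken.

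The authors' deposited table gives a p-value for each pair within a library, which for the same small RNA and transcript could differ with the category. By the authors' deposited table it was at most 0.05 in 2 of the 21 pairs in D_5d and in 0 in L_1h. For Os05g0150500 with osa-miR393a it was 0.0133 in D_5d, in category 0, and 0.877 in L_1h, in category 2. For Os04g0395600 with the same small RNA the authors' deposited table gives 0.689 and 0.877, in category 2 both times. The value of 0.877 is the same for 74 and for 100 reads. On ARF12 version ZS04t0796000-04 the authors' deposited table gives 0.0214 in D_5d, and 0.848 on the other versions. For ARF25, in category 2 in both libraries, the authors' deposited table gives 0.270 and 0.432, so category alone does not set the value.

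The authors' deposited table also tests the libraries against each other. Its Fisher's exact p-value for the next base of Os04g0395600 is 9.21e-25, on 9 and 6 raw reads, and for ARF12 in the authors' deposited table it is 2.22e-06, on 10 and 14 raw reads. The table does not state which counts entered these tests. The counting intervals of the same raw reads, 0.0884 to 0.9499 and 0.262 to 1.60, end just below 1 and include 1. The log2 fold change of that table is dark over light, the opposite direction of the ratios given here. For the next base of Os04g0395600 it is 1.73 in the authors' deposited table.

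Beyond the receptors, 12 genes were listed with miR393, of which 2 had reads, 1 called lower and none higher. Over all 823 genes with reads 2.31% were called lower and 3.28% higher, and 2 genes are too few to set against these shares. Of the 2, the one with more reads, transcript ZS03t0460300-01, has no symbol or description in the table. It also had reads at neighbouring bases, 900 and 901, listed with the same miR393 forms at a penalty of 3.5. Its main position had 9 and 7 reads and its next base 5 and 4. Joined, 14 and 11 reads gave a ratio of 0.356 (0.146 to 0.844), and its next base held 35.7% (12.8 to 64.9) and 36.4% (10.9 to 69.2) of them. The direction seen in the receptors' shares was not seen here, on few reads.

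Beyond ARF12 and ARF25, 58 genes were listed with miR167, of which 6 had reads, 1 called lower and none higher. Over all 823 genes with reads the shares were 2.31% and 3.28%. Among the 6 genes no pair with reads had a penalty under 3.5. The one called, Os09g0567700, described as a WD repeat protein, had 7 reads in D_5d and 1 in L_1h, a ratio of 0.0647 (0.00144 to 0.504). SUF4 had 5 and 3 reads and was not called, at 0.272 (0.0422 to 1.40). Its site is listed with osa-MIR167f-p3 alone, whose seed is not that of the ARF-paired forms. The 6 genes thus include some whose reads lie only at sites of forms with other seeds. The listed miR167 pairs with the lowest penalty gave no read. On ZS06t0598900-01, described as Os06g0668200, osa-miR167d-5p and osa-miR167e-3p were listed with a penalty of 0 at 3394 to 3414 and 3232 to 3252. By name these are a 5p and a 3p form, and whether this transcript is a target of miR167 was not tested. With 0 reads in either library, it lay under the floor of 3 reads, which is 195 TPB in D_5d and 88.1 in L_1h.

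Forms of miR167 with the seed of the ARF-paired forms numbered 6 names and 50 pairs, of which 17 had reads and 9 were on ARF12 or ARF25. osa-miR167d-5p, which differs from osa-miR167a-5p by A21G, was listed on 18 transcripts, none of them a member.

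Other genes matched by auxin words in the symbol or description numbered 35 with a listed pair and 9 with reads. Whether each belongs to the auxin pathway was not checked, and the 9 include the 5 ARF genes listed with miR160. Of the 9, 1 was called higher and none lower, beside 3.28% and 2.31% of all 823 genes with reads. The one called was ARF10, listed with miR160, at 146 and 857 reads and a ratio of 2.66 (2.23 to 3.19). This call was lost with the sum scaling, at 1.96. ARF18, with the most reads, stood at 1.48 (1.36 to 1.60), ARF22 at 1.39 (1.27 to 1.53) and ARF8 at 0.759 (0.688 to 0.839), none past 2-fold. IAA30, by its symbol an Aux/IAA repressor of the kind the receptors bind, had 2 and 4 reads at 0.906 (0.130 to 10.01). These reads lie at sites listed with osa-MIR396h-p5_1ss16GA and osa-miR408-5p, which are of other families. ARF17 had 0 and 1 read at a site of a small RNA of another family and no listed miR167 pair with reads. Of the 9 genes, 1 is described as ADP-ribosylation factors and 1 as a GNOM-like exchange factor for these, and both match the words through the shared abbreviation ARF. IAA30, ARF17, SUF4, ZS06t0598900-01 and the NFYA6 and NAC021 pairs were named after their values were seen.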

How the data were processed

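Degradome libraries of rice mesocotyls, 1 per condition, were analysed from the first sheet of the deposited table, in which 1 line was empty. The degradome libraries, made from total RNA, were sequenced on an Illumina HiSeq, per the labels' protocols. The aligner, target finder and build were not given in the sources used here. Deposited raw read counts are whole reads starting at a cut. The deposited normalized reads are a signal that the authors divided by the number of matching places, and the deposited TPB signal is that value times 1 constant per library, from which the library totals were computed. The deposited p-values, categories and pairing penalty scores, and the log2 fold change that the authors deposited as dark over light, were copied. Some columns name a dark library of 1 h and were read as D_5d, since L_1h has its own columns. In the other sheets 20 columns of per-sample values were not used.

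TPB was summed over versions and positions for a gene. Ratios have exact Clopper-Pearson 95% intervals of the raw reads (scipy 1.17.1, pandas 2.3.3, Python 3.11.15), and levels exact Poisson ones. Without molecular identifiers PCR copies of a molecule cannot be recognised, so intervals and the floor of 3 reads cover counting error only. Odds ratios are conditional, with exact intervals. Alternatives were other scalings, raw reads, the main position alone, and filters on reads, category, penalty and p-value. The genes, the word lists and the positions named were chosen with earlier results of these data known. All 4 genes are named; of each comparison list, genes with most reads and those called.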

Additional observations from a re-analysis of the deposited data

How the results depend on the processing

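The 4 genes gave 24 values under the alternatives. Of these, 14 equal the value reported, since raw reads, the filters on reads and category and, for the ARF genes, the main position alone leave the same reads. The other 10 lay within the counting interval of the value reported, and none was called. Os04g0395600 was above 1 in 2 of them, at 1.03 both with the median scaling and with the main position alone, and the other 22 of the 24 values were below 1. With the sum scaling the receptors stood at 0.668 (0.476 to 0.947) and 0.561 (0.386 to 0.824), intervals below 1 but under 2-fold. Of 45 alternative values of the sites 15 equal the value reported, and the other 30 stayed within their intervals. The number of member sites called lower was 0 with the median scaling against 4, and was 4 with the sum scaling, a 1.5-fold threshold or at least 10 reads. Counting versions with the same reads as 1 left 6 of 15 sites, a penalty of at most 3 left 8 and a p-value of at most 0.05 in the authors' deposited table left 2. With the sum scaling 22 sites and 12 genes of the whole table were called higher and 106 and 44 lower, against 52, 27, 49 and 19. Of called sites 51.5% were higher on the authors' scale, 63.9% with the median and 17.2% with the sum scaling, and of called genes 58.7%, 63.0% and 21.4%. The cause of these moves was not tested. No paired analysis was possible because each condition has 1 library. Depth limits the ARF genes most, with 13 and 19 reads over both.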
